A study of Mus musculus with 32 samples.

Results

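Mouse primary white adipocytes in which both Nfe2l1 and Atf3 were silenced were set against adipocytes that received a scramble siRNA, all of them loaded with cholesterol. The comparison took 8 of the 32 libraries of the series, chosen by their labels alone: 4 with siRNAs against Nfe2l1 and Atf3, and 4 with the scramble siRNA. The adipocytes were generated from subcutaneous fat of mice and grown in culture with serum. Loading meant 6 h with 400 µM cholesterol carried on methyl-β-cyclodextrin, a sugar ring that hands cholesterol to cells. The same siRNA pair without cholesterol (4 libraries, against 4 scramble libraries without cholesterol), and each siRNA alone with cholesterol (4 libraries each), were used for comparison. Sample titles number biological replicates 1 to 4 in each group but name no animals, so p-values measure the spread between these libraries, which may be technical. Strain, age and sex of the mice are not given in the sources used here. Nor is it stated whether the control treatment held the carrier.

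Nfe2l1 encodes a transcription factor anchored in the endoplasmic reticulum membrane, which is held back or released depending on proteasome activity and on membrane cholesterol. When released it binds antioxidant response elements together with small Maf proteins and drives the genes of the proteasome, the complex that degrades ubiquitin-tagged proteins. Atf3 encodes a stress-induced factor of the ATF and CREB family, which is itself a target of the integrated stress response and in many cells represses inflammatory genes. The study's title names control of cholesterol-induced adipocyte inflammation by these 2 genes as its question.

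The 8 libraries held between 24106078 and 28391112 counted reads. Levels are given as CPM, read counts scaled to the TMM-normalised size of each library. Fold changes are log2 of double silencing over scramble with their standard error (SE). A gene is called where the adjusted p of edgeR's quasi-likelihood test, corrected over all 16984 genes tested, is below 0.05. The chi-square of counts per degree of freedom between pairs of libraries ran from 4.81 to 13.2 among the double-silenced libraries and from 4.66 to 10.7 among scramble libraries 2 to 4. Scramble library 1 stood apart from these, at 29.5 to 35.3. On the first principal component of the 8 libraries, with 49.4% of the variance, the double-silenced libraries lay at 15.1 to 20.4 and the scramble libraries at -24.7 to -12.6. The median gene had a library-to-library SD of 0.11 (log2 CPM) after double silencing and of 0.17 in scramble. With library totals in place of TMM the median fold change of all genes was 0.14, against -0.01 with TMM. Calls under library totals are given in brackets where a printed count of a group differs by more than 1.5 times.

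Adipocyte marker genes summed to 17745 to 19034 CPM in double-silenced cells and to 20572 to 23031 CPM in scramble cells, so both groups carried the labelled cell type. Markers of other cells were present at lower sums: fibroblast and precursor markers at 3954 to 4142 CPM against 4894 to 5577 CPM in scramble, endothelial markers at 457.9 to 534.5 CPM against 570.7 to 669.1 CPM, and macrophage markers at 337.1 to 372.0 CPM against 219.0 to 248.4 CPM. Smooth muscle and pericyte markers summed to 390.6 to 420.1 CPM after double silencing and to 526.3 to 578.1 CPM in scramble, although 4 of the 12 tested were higher and 4 lower. Striated muscle markers summed to 29.8 to 46.6 CPM against 101.8 to 121.6 CPM in scramble, with 1 of 3 tested genes lower. Schwann cell markers summed to 43.6 to 47.9 CPM after double silencing, against 33.7 to 41.1 CPM in scramble. Lymphocyte markers summed to at most 0.499 CPM after double silencing and to at most 0.328 CPM in scramble. In bulk RNA, fewer cells of a type and less RNA per cell cannot be told apart.

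Both targets were low in every double-silenced library. Nfe2l1 (GRCm39 chromosome 11, 96708240 to 96720794, minus strand) stood at 159.9, 154, 163 and 151 CPM in the 4 double-silenced libraries and at 804, 814, 872 and 767 CPM in the 4 scramble libraries (log2 fold change -2.38 ± 0.07 SE, edgeR adjusted p = 1.53e-24). Atf3 (chromosome 1, 190902493 to 190950236, minus strand) stood at 54.2, 47.0, 51.6 and 50.5 CPM after double silencing, against 561, 309.8, 439 and 281 CPM in scramble (log2 fold change -2.97 ± 0.28 SE, edgeR adjusted p = 4.29e-09). For both genes the groups were far apart, and the scramble libraries differed among themselves much more for Atf3 than for Nfe2l1.

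Without cholesterol, Nfe2l1 averaged 114 ± 1.91 CPM in double-silenced cells and 487 ± 6.02 CPM in scramble cells (SD, n = 4 each), and the loaded and unloaded effects differed by -0.28 ± 0.09 on the log2 scale. Atf3 averaged only 15.3 ± 1.42 CPM in unloaded double-silenced cells and 26.8 ± 2.43 CPM in unloaded scramble cells, so its level was low at rest in both groups. The difference between the loaded and unloaded effect was -2.17 ± 0.40 on the log2 scale (edgeR adjusted p = 0.0012). Double silencing left slightly more Nfe2l1 mRNA than siNfe2l1 alone, 157 ± 5.67 against 120.0 ± 17.4 CPM (log2 fold change 0.39 ± 0.07 SE, edgeR adjusted p = 2.26e-05). For Atf3 the double-silenced mean was 50.8 ± 2.99 CPM and that of siAtf3 alone 40.9 ± 7.88 CPM, a difference that was not called (log2 fold change 0.32 ± 0.27 SE, edgeR adjusted p = 0.584).

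**Figure D1:**
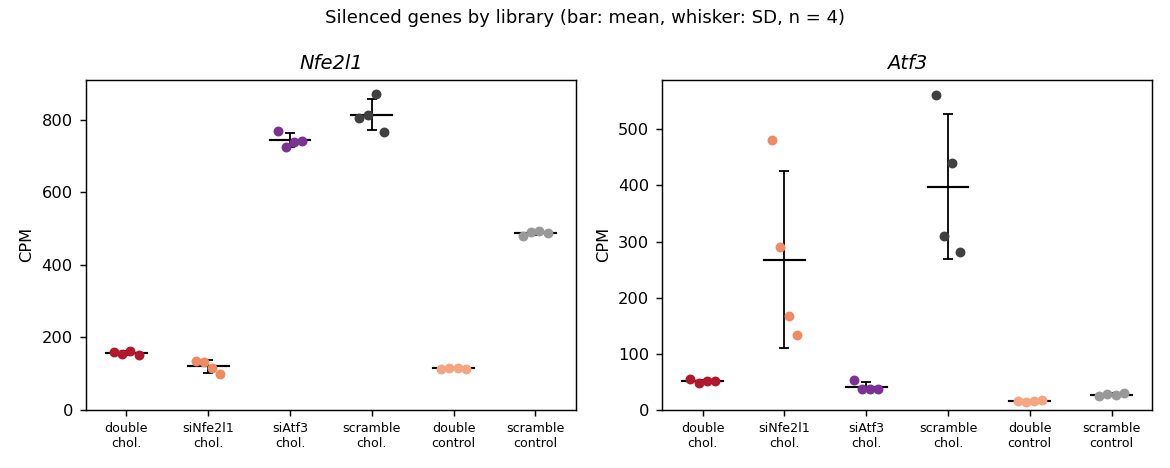
Level of Nfe2l1 and Atf3 (CPM, linear axis from 0) in each library of 6 groups, with cholesterol (chol.) or control treatment; points are libraries, bars means and whiskers SD (n = 4). Both genes are low in the loaded double-silenced libraries, and Atf3 in loaded scramble cells runs between 281 and 561 CPM.

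Across the transcriptome 7593 of the 16984 tested genes were called, 44.7%, of which 3537 (20.8%) were higher and 4056 (23.9%) lower after double silencing. With library totals the split was 6049 higher and 2299 lower. The balance of directions thus rests on the scaling. Most of these changes were small: 381 genes called and more than 2-fold higher and 380 more than 2-fold lower (2.24% each). At 6423 genes (37.8%) the 4 double-silenced libraries did not overlap the 4 scramble libraries. Against so broad a background, a gene group is described here by its direction, its size and its members rather than by having called members at all. The shares of 20.8% higher and 23.9% lower are the background of every group count in loaded cells against scramble.

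The genes highest after double silencing included many that are interferon-inducible. The 12 protein-coding genes with the largest rise among well-expressed genes without overlap between the groups are named here. Of these, Mx1, an antiviral dynamin-like GTPase, and the immunity-related GTPases Tgtp2, Irgm1, Ifi47 and Gm4841 belong to that kind, as do Slfn8, a Schlafen-family gene, and Pml, which builds nuclear bodies. Mx1 (GRCm39 chromosome 16, 97248235 to 97264107, minus strand) stood at 13.6, 15.8, 19.8 and 14.4 CPM in double-silenced cells and at 2.67, 5.45, 3.47 and 4.69 CPM in scramble cells (log2 fold change 1.96 ± 0.37 SE, edgeR adjusted p = 0.000126). Irgm1, which guards vacuoles and lysosomes, stood at 95.0, 101, 111 and 91.4 CPM after double silencing, against 22.8, 32.7, 22.2 and 36.6 CPM in scramble (log2 fold change 1.80 ± 0.23 SE, edgeR adjusted p = 8.44e-07). That the groups do not overlap at these genes follows from the rule that chose them. Gm4841 had the largest fold of the 12, 3.61 ± 0.43, at 14.9, 17.3, 16.7 and 15.3 CPM against 0.609, 2.14, 0.771 and 1.66 CPM in scramble. It shares sequence with other GTPases of the family, so its reads are uncertain.

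The remaining genes of the 12 were Mup17 (3.26 ± 0.61), Klhl23 (2.23 ± 0.18), Cd5l (2.21 ± 0.21), Clec4n (1.84 ± 0.19) and Aldh1a1 (1.78 ± 0.07). Cd5l, a secreted macrophage protein that acts on lipid metabolism, stood at 26.2, 31.7, 27.6 and 32.2 CPM in double-silenced cells, against 7.78, 6.04, 4.41 and 7.26 CPM in scramble. Clec4n, a C-type lectin receptor of myeloid cells, averaged 6.55 ± 0.578 against 1.84 ± 0.347 CPM. Both are macrophage genes, and the summed macrophage markers were higher in the same libraries. Their part in these results was not tested. Mup17, a lipocalin of the major urinary protein cluster whose members are near-identical, stood at 6.68, 13.0, 11.7 and 10.3 CPM after double silencing and at 0.750, 2.43, 0.214 and 0.912 CPM in scramble. Aldh1a1, which makes retinoic acid from retinal, stood at 49.6, 51.7, 45.0 and 55.0 CPM in double-silenced cells and at 16.1, 13.5, 14.5 and 14.7 CPM in scramble.

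Interferon-stimulated genes are switched on when type I interferon activates a factor complex that contains Stat2 and Irf9 and binds the interferon-stimulated response element. Of 28 interferon-response genes tested, 21 were higher and 3 lower, and their median fold change was 0.70 against -0.01 for all genes. The element was searched as a pair of GAAA runs with 2 bases of any kind between them, on either strand. The promoters of Ifit1 and Ifit3b, the called interferon genes with the largest rise that hold it, are shown with each match in capitals. They run from 250 bases before the start to 50 after it (RefSeq, build GRCm38.p6, chr19:34640639-34640938 and chr19:34607707-34608006, plus strand), and this pair was chosen after its values were seen.
Ifit1: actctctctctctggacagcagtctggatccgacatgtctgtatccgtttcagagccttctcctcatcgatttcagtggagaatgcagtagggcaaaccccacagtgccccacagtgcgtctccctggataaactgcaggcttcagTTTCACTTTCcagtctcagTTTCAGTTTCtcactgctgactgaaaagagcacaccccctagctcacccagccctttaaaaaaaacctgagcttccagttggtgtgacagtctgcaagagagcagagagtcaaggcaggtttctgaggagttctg
Ifit3b: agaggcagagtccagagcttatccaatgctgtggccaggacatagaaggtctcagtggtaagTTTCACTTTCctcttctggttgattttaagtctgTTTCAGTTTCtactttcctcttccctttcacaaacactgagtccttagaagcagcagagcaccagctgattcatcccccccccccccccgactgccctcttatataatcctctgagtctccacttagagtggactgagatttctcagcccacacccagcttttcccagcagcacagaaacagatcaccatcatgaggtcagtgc
The element was found in 12 of 21 promoters of the interferon group (57.1%) and in 3.79% of the 11735 tested genes with a matched promoter. It was found in 27 of 259 promoters of genes called and more than 2-fold higher (10.4%), Ifit1 and Ifit3b among them, and in 3.75% of those more than 2-fold lower. This element was added to a search first planned for other motifs. The cAMP response element TGACGTCA was found in 1.54% of the promoters of genes more than 2-fold higher, 5% of those lower and 3.36% of all tested. For the C/EBP-ATF element TGATGNAA these shares were 3.09%, 5.42% and 2.86%, and for the AP-1 element TGANTCA 7.34%, 7.92% and 6.76%. These are counts of letters in a window, not of bound sites.

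Ifit1, which binds foreign RNA, stood at 292, 277, 303 and 265 CPM after double silencing and at 106, 122, 93.9 and 117 CPM in scramble (log2 fold change 1.37 ± 0.22 SE, edgeR adjusted p = 1.69e-05). The mitochondrial nucleotide kinase gene Cmpk2 (1.71 ± 0.25), Ifit3b (1.40 ± 0.23) and Stat2 (1.13 ± 0.18) rose too. Irf9 stood at 72.7, 76.8, 79.7 and 74.0 CPM in double-silenced cells, against 36.4, 47.6, 42.6 and 47.8 CPM in scramble (0.80 ± 0.08), without overlap. Isg15, a ubiquitin-like modifier, was called with a small change (0.38 ± 0.14). That call was lost with no filter on low counts, with limma-voom with weights by group, without double-silenced library 3, and without scramble library 2, 3 or 4. The fold change was 0.32 to 0.39 in these settings. In the group 3 genes were lower. Irf7, the amplifier of interferon production, stood at 205, 189, 224 and 207 CPM against 386, 298, 334 and 318 CPM in scramble (-0.70 ± 0.07), and the membrane tether gene Bst2 (-0.52 ± 0.07) and Irf1 (-0.32 ± 0.09) were the others. The call of Irf1 was lost with library totals (-0.16).

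The gene of 1 ligand of this pathway was lower. Ifnb1, which encodes interferon beta and was added to the named genes after its values were seen, stood at 2.01, 0.898, 1.96 and 1.78 CPM in double-silenced cells and at 6.56, 3.44, 4.50 and 3.48 CPM in scramble cells (log2 fold change -1.43 ± 0.35 SE, edgeR adjusted p = 0.00147). Ifnb1 was lower in every double-silenced library than in any scramble library, and its part in the interferon result was not tested. Its level was near 0 without cholesterol, at 0.167 ± 0.0955 CPM in double-silenced and 0.188 ± 0.0360 CPM in scramble cells.

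Loaded scramble cells had the lowest summed interferon response of the 4 groups with both siRNAs or with scramble. The listed genes summed to 2803 to 3171 CPM in loaded double-silenced cells and 2184 to 2385 CPM in loaded scramble cells. They summed to 3126 to 3899 CPM in unloaded double-silenced and 2929 to 3370 CPM in unloaded scramble cells. With a single siRNA in loaded cells the sum was 2558 to 3083 CPM for siNfe2l1 and 1995 to 2546 CPM for siAtf3. The siNfe2l1 range overlapped that of loaded double silencing, and the siAtf3 range that of loaded scramble. Mx1 averaged 15.9 ± 2.73 CPM in loaded double-silenced cells, against 4.07 ± 1.24 CPM in loaded scramble cells. Unloaded cells had 22.8 ± 4.68 CPM after double silencing and 16.5 ± 4.53 CPM in scramble. Without cholesterol 10 of the 28 were higher and 1 lower after double silencing (12.9% and 14.3% of all genes). The effect itself was more positive with loading at 9 genes and more negative at 3 (6.52% and 7.21% of all genes), with a difference of 1.48 ± 0.49 at Mx1, 1.44 ± 0.32 at Irgm1, 1.001 ± 0.31 at Ifit1 and 0.9994 ± 0.24 at Stat2. In loaded cells 8 of 17 macrophage markers were higher too (14 with library totals). Their effect was more negative with loading at 5 and more positive at none, and their part in the interferon result was not tested.

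**Figure D2:**
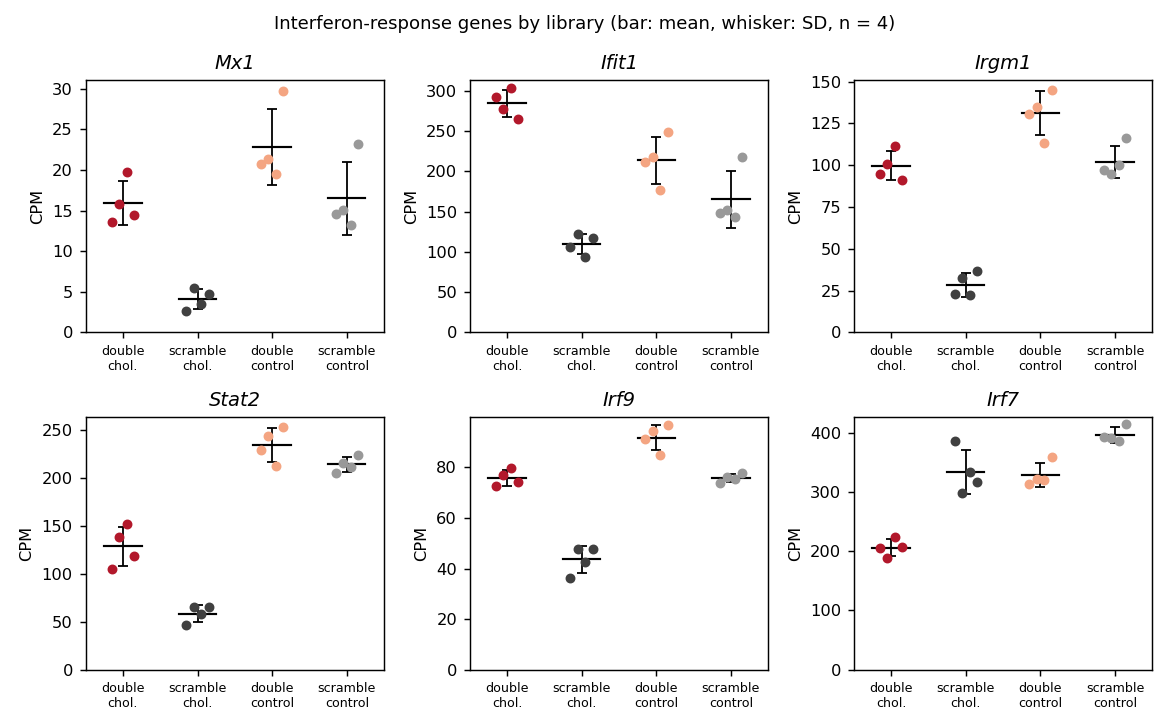
Level (CPM, linear axes from 0) of 6 interferon-response genes in each library, double silencing left of scramble within each treatment; points are libraries, bars means and whiskers SD (n = 4). Mx1, Ifit1, Irgm1, Stat2 and Irf9 are lowest in loaded scramble cells, while Irf7 is lowest in loaded double-silenced cells.

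Genes of the proteasome, the best known targets of Nfe2l1, fell together. All 14 tested genes of the core particle were lower, with a median of -0.31, and 18 of 19 genes of the regulatory particle, with a median of -0.43; with library totals 9 and 16 were lower. The steepest named member was Psmd3, a scaffold subunit of the regulatory lid, at 109.8, 117, 128 and 121 CPM in double-silenced cells against 208, 183, 180.0 and 185 CPM in scramble (log2 fold change -0.67 ± 0.05 SE, edgeR adjusted p = 1.13e-13). Psmb3, a structural subunit of the core ring, stood at 82.9, 86.7, 83.8 and 88.7 CPM after double silencing and at 137, 112, 109.5 and 127 CPM in scramble (-0.51 ± 0.06). The groups did not overlap for either gene, as at 37.8% of all genes, and Psmd6 alone was not called (-0.04 ± 0.05). The catalytic subunit Psmb5 (-0.35 ± 0.06), the ubiquitin receptor Adrm1 (-0.62 ± 0.05), the small lid subunit Sem1 (-0.63 ± 0.08) and the assembly chaperone Pomp (-0.36 ± 0.06) fell as well. Among 7 immunoproteasome and activator genes 2 were higher and 3 lower (3 and 2 with library totals, where their median changed sign). The interferon-inducible catalytic subunit Psmb8 stood at 65.9, 65.0, 73.2 and 67.6 CPM after double silencing, against 104, 88.9, 94.2 and 92.4 CPM in scramble (-0.48 ± 0.06).

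Adrm1 and Sem1 are the called proteasome genes with the smallest adjusted p whose promoters hold the antioxidant response element core TGACNNNGC on either strand, shown in capitals. Both windows run from 250 bases before the start to 50 after it (RefSeq, build GRCm38.p6, chr2:180171338-180171637 plus strand and chr6:6578609-6578908 minus strand).
Adrm1: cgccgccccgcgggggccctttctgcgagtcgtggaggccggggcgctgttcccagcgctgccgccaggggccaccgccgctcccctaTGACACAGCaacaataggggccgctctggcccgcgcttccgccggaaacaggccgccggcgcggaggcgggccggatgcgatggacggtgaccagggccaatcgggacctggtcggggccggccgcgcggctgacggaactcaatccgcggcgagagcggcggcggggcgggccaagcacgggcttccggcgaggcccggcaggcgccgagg
Sem1: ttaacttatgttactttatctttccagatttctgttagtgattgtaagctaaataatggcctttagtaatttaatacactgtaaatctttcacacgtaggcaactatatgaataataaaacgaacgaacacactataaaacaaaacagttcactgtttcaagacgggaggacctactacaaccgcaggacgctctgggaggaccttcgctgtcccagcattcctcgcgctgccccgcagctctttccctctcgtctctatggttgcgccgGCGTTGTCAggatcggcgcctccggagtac
The core was found in 6 of 27 proteasome promoters (22.2%), in 16.9% of all tested genes with a promoter, in 14.6% of genes called higher and in 17.9% of genes called lower. Without cholesterol 13 of 14 core and 18 of 19 regulatory genes were lower (6 and 14 with library totals), against 14.3% of all genes. The effect differed with loading at none of the core genes and at Psmd4 alone of the regulatory genes (log2 fold change -0.29 ± 0.09 SE, edgeR adjusted p = 0.0284). Of all genes 13.7% differed with loading.

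Other Nfe2l1-linked genes split in direction. Of 15 genes for Nfe2l1 processing and partners 6 were lower and 2 higher (6 and 6 with library totals, where their median changed sign), with the related factor Nfe2l3 at -1.49 ± 0.16 and Nfe2l2, the regulator of antioxidant genes, at -0.30 ± 0.06. Of 22 antioxidant genes 5 were higher and 8 lower (11 and 5 with library totals, where their median changed sign), against 20.8% and 23.9% of all genes. Their median was -0.02, close to the -0.01 of all genes. Among the antioxidant genes were the quinone reductase Nqo1 (0.51 ± 0.07) and the aldehyde oxidase gene Aox1 (-0.66 ± 0.07), while the heme oxygenase gene Hmox1 was not called (-0.09 ± 0.09).

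Heat shock genes encode chaperones that refold or hold damaged proteins. Of 21 cytosolic heat shock genes 20 were lower and none higher, with a median of -0.48 (15 lower with library totals). Of all genes tested 23.9% were lower. Hspb1, a small heat shock protein, stood at 289.6, 249.6, 279 and 277 CPM after double silencing, against 903, 522, 581 and 568 CPM in scramble (log2 fold change -1.23 ± 0.15 SE, edgeR adjusted p = 2.33e-07). Dnajb1, a co-chaperone of Hsp70, stood at 195, 166, 192 and 184 CPM in double-silenced cells and at 479, 296, 371 and 301 CPM in scramble (-0.97 ± 0.16). Inducible Hsp70, Hspa1a, stood at 439.7, 360.4, 454 and 425 against 1217, 737, 865 and 737 CPM in scramble (-1.08 ± 0.17), though its reads can be split with its near-identical neighbour Hspa1b. Every double-silenced library lay below every scramble library for all 3, and the first scramble library was the highest for each. Of all genes tested 37.8% had no overlap between the groups.

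The co-chaperone Bag3 (-0.84 ± 0.11), Hsph1 (-0.92 ± 0.11) and Hsp90aa1 (-0.59 ± 0.09) followed. The polyubiquitin gene Ubb, a source of free ubiquitin, stood at 882, 784, 914 and 917 CPM after double silencing and at 1980, 1337, 1667 and 1347 CPM in scramble (log2 fold change -0.86 ± 0.15 SE, edgeR adjusted p = 3.64e-05). The ubiquitin-binding gene Zfand5 (-0.95 ± 0.13) was lower too. Without cholesterol 6 of the 21 heat shock genes were lower and none higher (3 lower with library totals), against 14.3% and 12.9% of all genes. The effect was more negative with loading at 13 of the 21 (7.21% of all genes), Hspb1 among them (-0.99 ± 0.21), Dnajb1 (-0.89 ± 0.23) and Hspa1a (-0.96 ± 0.31). The summed level of the group was 9328 to 10337 CPM in loaded double-silenced cells and 13367 to 18097 CPM in loaded scramble cells. Without cholesterol it was 4397 to 4562 CPM in double-silenced and 4812 to 5024 CPM in scramble cells.

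Immediate early genes are switched on within minutes of a stimulus, without new protein synthesis. Of 21 immediate early genes 17 were lower and 1 higher, with a median of -0.64 (2 higher with library totals), and of 10 Fos and Jun genes 7 were lower and 2 higher. Jun, a subunit of AP-1, stood at 333, 296, 353 and 321 CPM in double-silenced cells and at 939.5, 559.5, 806 and 519.8 CPM in scramble (log2 fold change -1.12 ± 0.19 SE, edgeR adjusted p = 4.24e-05). Nr4a3, an orphan nuclear receptor, stood at 8.18, 7.29, 8.47 and 8.05 CPM after double silencing, against 21.2, 19.9, 25.8 and 16.8 CPM in scramble (log2 fold change -1.39 ± 0.18 SE, edgeR adjusted p = 1.81e-07). For both, scramble libraries 1 and 3 were the highest and none overlapped the double-silenced ones. Such a lack of overlap was found at 37.8% of all genes. Fos (-0.78 ± 0.16) and Btg2, an antiproliferative gene (-1.03 ± 0.19), were lower. Egr1 stood at 385, 286, 355 and 336 CPM in double-silenced cells, against 466, 459.9, 460.1 and 447 CPM in scramble (-0.43 ± 0.11), while its relative Egr3 was higher (0.53 ± 0.11).

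Of 16 MAP kinase phosphatase and Sprouty genes 7 were lower and 2 higher (4 and 2 with library totals). Of all genes 23.9% were lower and 20.8% higher. Dusp1, which inactivates stress kinases, stood at 268, 210.0, 240.5 and 261 CPM after double silencing and at 761, 471, 634 and 451 CPM in scramble (log2 fold change -1.24 ± 0.21 SE, edgeR adjusted p = 3.09e-05), and Dusp10 changed by -1.40 ± 0.22. In unloaded cells 2 of the 21 immediate early genes were lower and none higher (none either way with library totals), against 14.3% and 12.9% of all genes. The effect was more negative with loading at 12 of the 21, Nr4a3 with the difference -1.53 ± 0.29, and more positive at 2, Egr3 among them (0.66 ± 0.15). Of all genes 7.21% were more negative and 6.52% more positive. For Jun the difference was -0.93 ± 0.28 and for Dusp1 -1.33 ± 0.31.

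**Figure D3:**
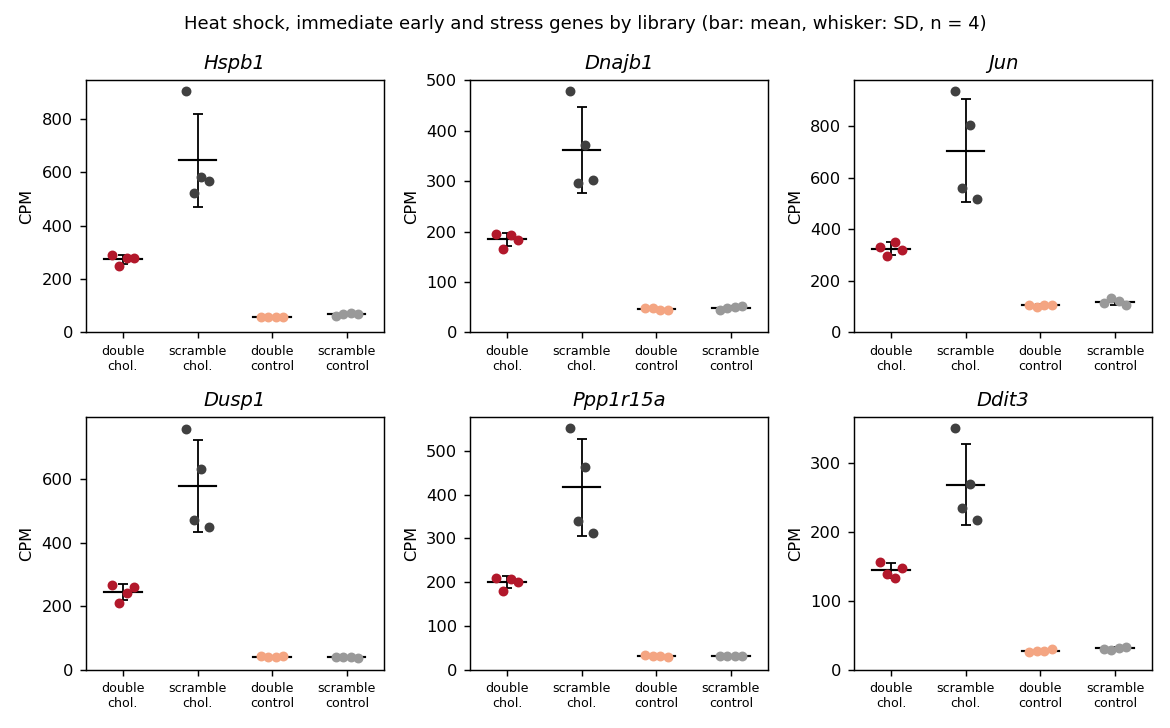
Level (CPM, linear axes from 0) of 6 heat shock, immediate early and stress genes in each library, double silencing left of scramble within each treatment; points are libraries, bars means and whiskers SD (n = 4). In all 6 panels the loaded double-silenced libraries sit below the loaded scramble libraries and above both unloaded groups, and scramble library 1 is the highest.

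In the integrated stress response, phosphorylated eIF2α favours translation of Atf4, which then drives its target genes. Of 28 such genes 19 were lower and 3 higher, with a median of -0.34 (13 and 6 with library totals). Ddit3, the proapoptotic factor CHOP, stood at 157, 139, 133 and 147 CPM in double-silenced cells and at 350.1, 235, 269 and 218 CPM in scramble (log2 fold change -0.90 ± 0.17 SE, edgeR adjusted p = 0.000117). Ppp1r15a, which encodes the feedback phosphatase subunit GADD34, stood at 209, 179.7, 208 and 201 against 551, 340.5, 462 and 311 CPM in scramble (-1.06 ± 0.20). Atf4 itself stood at 459.6, 383, 411 and 439 CPM after double silencing, against 909.9, 623, 731 and 634 CPM in scramble (log2 fold change -0.77 ± 0.13 SE, edgeR adjusted p = 3.37e-05). The groups did not overlap at any of these genes, as at 37.8% of all genes.

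Fgf21, a hormone gene, stood at 8.11, 4.86, 6.65 and 7.91 CPM after double silencing and at 19.5, 12.9, 16.9 and 13.3 CPM in scramble (-1.19 ± 0.20). The pseudokinase gene Trib3 (-0.82 ± 0.16) and the amino acid transporter gene Slc7a5 (-0.84 ± 0.08) also fell, whereas the cystine transporter gene Slc7a11 rose (0.45 ± 0.10) and Chac1 was not called (-0.35 ± 0.19). Loading made the effect more negative at 8 of the 28 and more positive at 2 (4 with library totals), against 7.21% and 6.52% of all genes. The differences were -1.08 ± 0.29 for Ppp1r15a and -0.75 ± 0.25 for Ddit3. Of 20 genes of endoplasmic reticulum chaperones 4 were higher and 6 lower, against 20.8% and 23.9% of all genes. Their median was -0.03, close to the -0.01 of all genes. With library totals 11 were higher and 2 lower, and the median was 0.12. Hspa5, the main chaperone BiP, was not called (-0.02 ± 0.05), but with library totals it was called higher, at 0.13. Of 19 tRNA synthetase genes 3 were higher and 11 lower, against 20.8% and 23.9% of all genes. With library totals, however, 6 were higher and 2 lower.

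Inflammatory genes did not move as 1 block. Of 26 chemokine and cytokine genes 10 were lower and 4 higher, with a median of -0.14 that became 0.01 with library totals. Of all genes 23.9% were lower and 20.8% higher. Ccl2, the monocyte chemoattractant, stood at 123, 125, 183 and 129 CPM after double silencing and at 262, 161, 205 and 164 CPM in scramble, where the groups overlapped and the call was marginal (log2 fold change -0.50 ± 0.19 SE, edgeR adjusted p = 0.0333). That call was lost with library totals, with no filter on low counts, with limma-voom with weights by group, in a fit of the compared groups alone, and on leaving out double-silenced library 1, 2 or 4 or scramble library 1 or 3. The fold change was -0.34 to -0.49 in these settings. Without double-silenced library 1 or 2, or without scramble library 1, 6 genes of the group were lower. Cxcl1, a neutrophil chemoattractant, stood at 202, 160.0, 265 and 166 CPM after double silencing, against 436, 292, 381 and 245 CPM in scramble (-0.77 ± 0.24), again with overlapping groups. The monocyte chemokine gene Ccl7 (-0.79 ± 0.19) was lower without overlap. Il6 (-0.54 ± 0.19) was lower with overlapping groups, and its call was lost under the settings named for Ccl2 other than limma-voom with weights by group. Il15, a cytokine that supports lymphocytes, was higher, at 2.39, 1.79, 1.99 and 2.56 CPM after double silencing against 1.59, 1.13, 0.685 and 1.29 CPM in scramble (0.90 ± 0.22).

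Of 23 NF-kB subunits, inhibitors and targets 14 were lower and 2 higher (8 and 3 with library totals), led by the inhibitor Nfkbia (-0.56 ± 0.12) and the adhesion gene Icam1 (-0.51 ± 0.09). Ptgs2, which encodes the inducible cyclooxygenase, was higher, at 224, 198, 262 and 200.2 CPM in double-silenced cells and 145, 145, 156 and 145 CPM in scramble (log2 fold change 0.58 ± 0.11 SE, edgeR adjusted p = 0.000113). Without cholesterol Ptgs2 was lower after double silencing (-0.64 ± 0.13), so the effect differed by 1.22 ± 0.17 with loading. Of 11 acute phase genes 7 were lower and 2 higher. Hp, the haemoglobin scavenger haptoglobin, stood at 1018, 1035, 1486 and 877 CPM after double silencing against 3002, 2683, 2689 and 2703 CPM in scramble (log2 fold change -1.33 ± 0.12 SE, edgeR adjusted p = 2.68e-09). The lipocalin gene Lcn2 was lower (-0.79 ± 0.14), and the metalloreductase gene Steap4 rose (0.73 ± 0.19). The summed macrophage markers were higher in the libraries where Hp and these chemokines were lower, though 9 of the 17 markers were not called. Their part in these results was not tested.

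Genes of the sterol response moved in both directions, as did genes at large. When cells are full of sterol, Insig proteins hold SREBP-2 in the endoplasmic reticulum and genes of uptake and synthesis are low. Insig1 stood at 159, 149, 143 and 171 CPM after double silencing, against 379, 311, 360.2 and 292 CPM in scramble (log2 fold change -1.11 ± 0.11 SE, edgeR adjusted p = 1.05e-08). Every double-silenced library lay below every scramble library. The synthesis gene Hmgcs1 (0.48 ± 0.06) and the sterol carrier gene Stard4 (0.50 ± 0.08) were higher. Acat2, an acetoacetyl-CoA thiolase gene, was lower (-0.44 ± 0.07). Over all 21 sterol synthesis enzymes 4 were higher and 7 lower, against 20.8% and 23.9% of all genes. With library totals 7 were higher and 2 lower, and the median changed sign. For Insig1 the loaded and unloaded effects were not shown to differ (-0.45 ± 0.16, edgeR adjusted p = 0.0587).

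Targets of LXR, the oxysterol-activated receptor of sterol efflux, were more often lower, 10 of 15 against 2 higher (5 and 3 with library totals). Arl4c, a small GTPase, had the largest change, at 42.1, 32.6, 38.8 and 39.9 CPM in double-silenced cells and 149, 102, 125 and 85.4 CPM in scramble (log2 fold change -1.59 ± 0.23 SE, edgeR adjusted p = 4.68e-06), and Nr1h3, which encodes LXRα, was lower (-0.63 ± 0.07). The efflux transporter gene Abcg1 was higher, at 370.1, 381, 401 and 399 CPM after double silencing against 269.5, 312, 315 and 299 CPM in scramble (0.38 ± 0.05). Abca1 was not called, at 758, 822, 812 and 786 CPM in double-silenced cells against 626, 1032, 1070 and 933 CPM in scramble (log2 fold change -0.20 ± 0.12 SE, edgeR adjusted p = 0.162). Scramble library 1 was the lowest of all 8 there, and without it Abca1 was called, at -0.35.

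The 12 largest falls, chosen by the same rule as the largest rises, were headed by Ppargc1a and Fads1. Ppargc1a, a coactivator of mitochondrial genes, stood at 17.0, 10.96, 10.8 and 12.4 CPM after double silencing and at 63.1, 65.6, 77.6 and 56.8 CPM in scramble (log2 fold change -2.37 ± 0.19 SE, edgeR adjusted p = 1.48e-10). Fads1, the delta-5 desaturase of polyunsaturated fatty acids, stood at 95.5, 84.0, 94.4 and 90.2 CPM in double-silenced cells, against 362, 390.3, 395 and 357 CPM in scramble (log2 fold change -2.05 ± 0.05 SE, edgeR adjusted p = 9.41e-27). The others of the 12 with the largest fall included 1700020L24Rik (-2.03 ± 0.18) and Mmp28, a metalloproteinase gene (-1.79 ± 0.10). They overlap on opposite strands, so their reads cannot be told apart where the counting did not use strand. The rest were the homeobox gene Dlx3 (-2.02 ± 0.19), the parathyroid hormone receptor gene Pth1r (-1.98 ± 0.09), the secreted protease gene Htra1 (-1.87 ± 0.05) and the linker histone gene H1f4 (-1.82 ± 0.10), followed by the collagen hydroxylase gene P4ha3 (-1.81 ± 0.10), Sox5 (-1.74 ± 0.14), Bmp8b (-1.71 ± 0.12) and Pdk4.

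Pdk4, which shuts pyruvate out of mitochondria, stood at 856, 549, 658 and 734 CPM after double silencing and at 2540, 2080, 2675 and 1757 CPM in scramble (-1.69 ± 0.31). Irs2, an insulin receptor substrate gene, stood at 86.0, 79.8, 85.5 and 91.6 CPM in double-silenced cells, against 197, 187, 238 and 174 CPM in scramble (-1.22 ± 0.17), while Pik3r1, a regulatory subunit of PI 3-kinase, was higher (0.81 ± 0.23). Of 16 thermogenic genes 8 were lower and 2 higher (5 and 2 with library totals). Ucp1, the uncoupling protein of brown and beige fat, stood at 10.5, 8.86, 10.2 and 9.66 CPM in double-silenced cells and at 23.7, 17.9, 20.03 and 16.4 CPM in scramble (log2 fold change -0.99 ± 0.13 SE, edgeR adjusted p = 2.32e-07). The fatty acid elongase gene Elovl3 (-0.9998 ± 0.15) was lower too.

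Adipocyte identity genes had a small median change, -0.17: 11 of 20 were lower and 2 higher (6 and 5 with library totals). Single members ran from -0.85 to 0.66. Adipoq, which encodes adiponectin, stood at 919, 874, 835 and 909 CPM after double silencing and at 1055, 974, 985 and 998 CPM in scramble (-0.18 ± 0.04). The adipogenic factor genes Cebpa (-0.42 ± 0.07) and Pparg (-0.18 ± 0.05) were lower, though the calls of Adipoq and Pparg were lost with library totals, and the lipid carrier gene Fabp4 was not called (-0.02 ± 0.08). Of 25 triglyceride, lipid droplet and lipolysis genes 15 were lower and 1 higher (11 and 5 with library totals). Dgat1, which catalyses the last step of triglyceride synthesis, stood at 155, 144, 153 and 154 CPM in double-silenced cells and at 302, 276, 283 and 261 CPM in scramble (log2 fold change -0.89 ± 0.06 SE, edgeR adjusted p = 2.78e-14). The glycerol phosphate enzyme gene Gpd1 (-0.85 ± 0.05), the lipase gene Lpl (-0.62 ± 0.04) and the droplet coat gene Plin2 (-0.36 ± 0.12) were lower. The call of Plin2 was lost with library totals (-0.21) and without double-silenced library 2 (-0.30) or scramble library 1 (-0.27).

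Of 20 lipogenesis and desaturation genes 9 were lower and 4 higher, led by Fads1 and by the citrate genes Acly (-0.91 ± 0.06) and Slc25a1 (-0.77 ± 0.05). The fatty acid synthase gene Fasn was lower (-0.48 ± 0.11). The stearoyl desaturase gene Scd1 was not called (-0.12 ± 0.05), but was called lower with DESeq2's size factors and DESeq2's Wald test, at -0.14 in both, and without scramble library 1, at -0.19. Srebf1, which encodes the factor that drives this pathway, was higher (0.63 ± 0.12). The group's median of -0.15 became 0.0032 with library totals.

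Lysosome, matrix and clock genes made up further groups on the lower side. Of 24 autophagy and lysosome genes 16 were lower and 1 higher (12 and 5 with library totals). The lysosomal protease gene Ctsb stood at 1784, 1744, 1912 and 1829 CPM after double silencing against 3776, 3466, 3558 and 3365 CPM in scramble (log2 fold change -0.96 ± 0.04 SE, edgeR adjusted p = 4.71e-19). Lower too were the autophagy genes Gabarapl1 (-1.07 ± 0.12) and Sqstm1 (-0.60 ± 0.10). Of 34 collagen and matrix genes 28 were lower and 1, the protease gene Mmp3 (0.61 ± 0.13), higher (15 and 3 with library totals). Col3a1, a fibrillar collagen, stood at 548, 616, 638 and 582.2 CPM in double-silenced cells and at 1923, 1769, 1835 and 1961 CPM in scramble (log2 fold change -1.65 ± 0.06 SE, edgeR adjusted p = 1.12e-21), and Col1a1 was lower too (-0.48 ± 0.06). The summed fibroblast markers given above were lower in the same libraries, and their part in this result was not tested. Of 19 clock genes 16 were lower and 1 higher (11 and 2 with library totals). The repressor gene Nr1d1 stood at 72.4, 62.2, 66.6 and 73.8 CPM after double silencing and at 252, 159.7, 218 and 145 CPM in scramble (log2 fold change -1.49 ± 0.23 SE, edgeR adjusted p = 1.2e-05), and the core clock genes Per1 (-0.94 ± 0.19), Per2 (-0.97 ± 0.12) and Arntl (-0.85 ± 0.13) were lower.

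Of 22 genes of p53 targets and cell death 13 were lower and 3 higher (7 and 7 with library totals). Among them were the growth arrest genes Gadd45g (-1.42 ± 0.19) and Gadd45a (-1.36 ± 0.24) on the lower side and Trp53inp1 (0.93 ± 0.08) on the higher. The cyclin E genes, which start DNA replication, were higher, Ccne2 by 1.07 ± 0.11 and Ccne1 by 1 ± 0.07. Of 22 proliferation genes, however, 6 were higher and 5 lower (7 and 2 with library totals), against 20.8% and 23.9% of all genes.

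**Figure D4:**
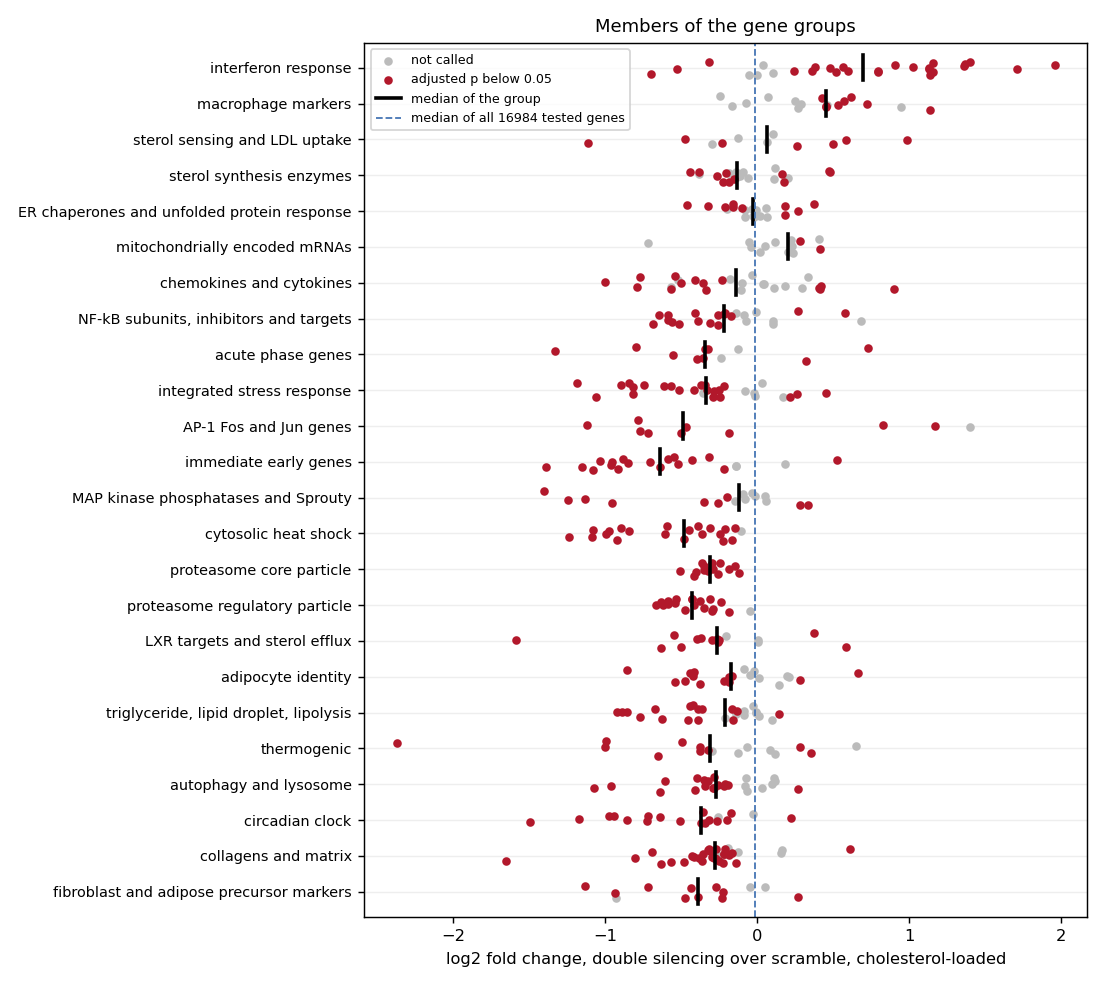
Log2 fold change of each tested member of 24 gene groups in loaded cells (one row a group, vertical jitter only for legibility); red points are called, grey points are not, black bars are group medians and the dashed line is the median of all 16984 genes. Interferon-response genes lie to the right and heat shock, immediate early, proteasome and clock genes to the left; with library totals every point moves right by about 0.15, and the medians of sterol synthesis, chaperone, cytokine and MAP kinase phosphatase genes change sign.

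Macrophage markers were on the higher side: 8 of 17 were higher and none lower (14 higher with library totals), among them the lysozyme gene Lyz2 (1.14 ± 0.14) and the adhesion receptor gene Adgre1 (0.53 ± 0.13). The complement gene C1qa stood at 8.84, 9.01, 9.17 and 9.23 CPM in double-silenced cells and at 6.56, 5.62, 5.82 and 6.43 CPM in scramble (log2 fold change 0.57 ± 0.13 SE, edgeR adjusted p = 0.000435). The defining markers Cd68 (0.07 ± 0.08) and Csf1r (-0.24 ± 0.12) were not called, but Cd68 was called higher with library totals, at 0.22, and Csf1r lower without scramble library 2, at -0.32. Without cholesterol 15 of the 17 were higher (12.9% of all genes), with a sum of 714.6 to 774.6 CPM after double silencing and 356.8 to 419.7 CPM in scramble. For C1qa the effect was smaller with loading, with a difference of -0.60 ± 0.17. Of 13 fibroblast markers 9 were lower and 1 higher (6 and 2 with library totals), and of 13 endothelial markers 5 were lower and none higher. Of 6 Schwann cell markers 3 were higher and 1 lower.

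Whether loading changes what double silencing does was tested gene by gene. In unloaded cells 4625 genes (27.2%) were called, 2199 higher and 2426 lower (4373 and 1473 with library totals). Of these, 3241 genes were called in both media, 42.7% of the calls with cholesterol and 70.1% of those without, and 97.04% of them went the same way. Across all 16984 genes the 2 sets of fold changes, which share no library, had a Pearson's r of 0.51 and a Spearman's rho of 0.50. These are descriptions, since genes are not independent replicates. The effect differed between media at 2331 genes (13.7%), 1107 of them more positive with loading (6.52%) and 1224 more negative (7.21%), against 1474 and 982 with library totals. That count was 1634 without scramble library 1 and 2696 without scramble library 4. Of the genes called in loaded cells 1962 had such a difference.

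Among well-expressed protein-coding genes the most positive differences were at Gm4841 (2.56 ± 0.56), Irgm2 (1.56 ± 0.36), Pi15 (1.54 ± 0.25) and the double-stranded RNA receptor gene Tlr3 (1.505 ± 0.30). The apelin receptor gene Aplnr (1.76 ± 0.44) counted as well expressed only through its unloaded libraries. It was close to absent in loaded cells, 0.392 ± 0.183 CPM after double silencing and 0.160 ± 0.0679 CPM in scramble, against 13.9 ± 0.830 and 19.8 ± 1.52 CPM in the same groups without cholesterol. Its call in loaded cells was lost with limma-voom, with or without weights by group, without double-silenced library 2 or 4 and without scramble library 1. The most negative were at Depp1 (-1.98 ± 0.52), Crocc2 (-1.91 ± 0.26), Arl4c (-1.78 ± 0.35), the claudin gene Cldn23 (-1.76 ± 0.51) and Dlx3 (-1.72 ± 0.28). At Psmd3 the loaded and unloaded effects were not shown to differ (-0.01 ± 0.07), whereas Ppargc1a fell further with loading (-1.28 ± 0.29), as did Fads1 (-0.37 ± 0.07) and Col3a1 (-0.63 ± 0.08). For Plin2 the sign differed, higher without cholesterol (0.34 ± 0.12) and lower with it, a difference of -0.71 ± 0.17. For Ccl2 (-0.15 ± 0.27) and Lyz2 (-0.34 ± 0.19) the difference was not called.

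**Figure D5:**
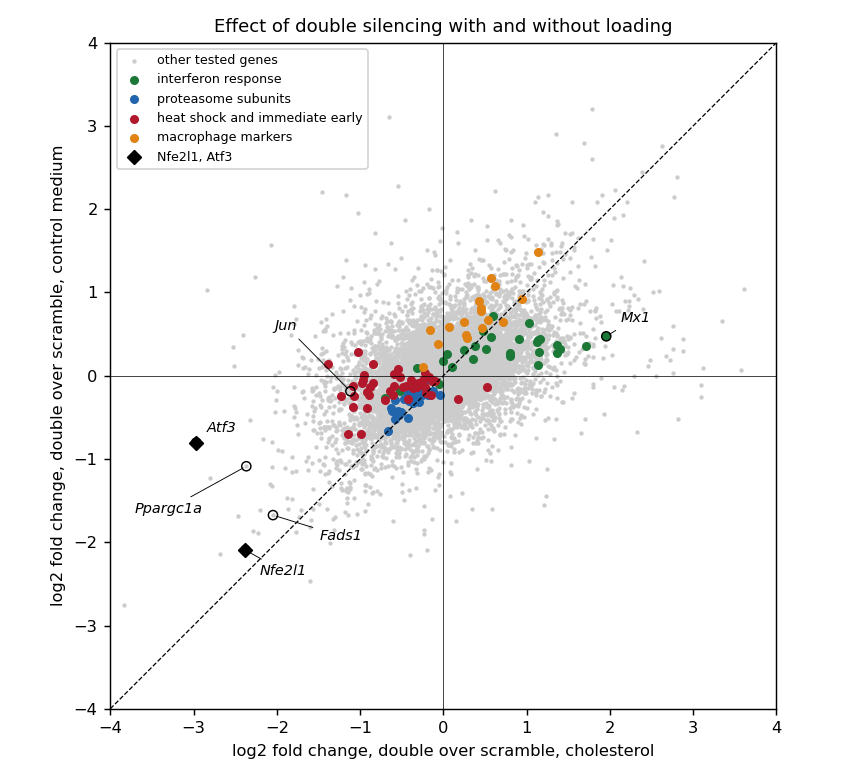
Log2 fold change of double silencing over scramble with cholesterol (x) and without (y), both on log2 scales, for all tested genes, with 4 gene groups in colour, Nfe2l1 and Atf3 as black diamonds and 4 further genes ringed; 5 genes lie outside the axes and the dashed line marks equal effects. Proteasome subunits follow the line of equal effects, while interferon-response genes lie below it on the right and heat shock and immediate early genes above it on the left.

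Double silencing was also set against each single siRNA in loaded cells, to see what the added siRNA changed. Against siNfe2l1 alone 6219 genes (36.6%) were called, 2672 higher (15.7%) and 3547 lower (20.9%). Against siAtf3 alone 1378 (8.11%) were called, 917 higher (5.40%) and 461 lower (2.71%). With library totals the calls higher and lower were 4523 and 2312 against siNfe2l1, and 599 and 717 against siAtf3. Within the siNfe2l1 group Atf3 varied widely, at 481, 290.0, 166 and 134 CPM in siNfe2l1 libraries 1 to 4.

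Against siAtf3 alone, the added siNfe2l1 showed in the proteasome: all 14 core genes and 17 of 19 regulatory genes were lower in double-silenced cells, Psmd3 with 119 ± 7.80 CPM against 148 ± 4.21 CPM in siAtf3 cells (log2 fold change -0.31 ± 0.05 SE, edgeR adjusted p = 2.42e-05). On the higher side stood 13 of 28 interferon-response genes, 13 of 20 lipogenesis genes, 16 of 34 matrix genes and 8 of 17 macrophage markers, with none lower in any of the 4 groups (8, 10, 11 and 8 higher with library totals). Markers of other cells moved with these groups: 6 of 13 fibroblast markers and 5 of 13 endothelial markers were higher and none lower (4 and 3 higher with library totals). Their part in the result was not tested. Acly averaged 954 ± 36.9 CPM in double-silenced cells, 576 ± 12.5 CPM in siAtf3 cells and 1786 ± 98.3 CPM in scramble cells (0.73 ± 0.06 against siAtf3). The largest single differences among well-expressed protein-coding genes were at Tfr2 (0.85 ± 0.14), Igfals (0.85 ± 0.11), Podnl1 (0.85 ± 0.13) and Ifit3b (0.85 ± 0.23) on the higher side, and at Myh14 (-0.89 ± 0.10), Ogdhl (-0.89 ± 0.10), Akr1cl (-0.85 ± 0.11), the peroxisomal gene Ehhadh (-0.83 ± 0.14) and the arginine methyltransferase gene Prmt5 (-0.82 ± 0.04) on the lower.

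Against siNfe2l1 alone, the added siAtf3 showed in other genes: 30 of 34 matrix genes, 14 of 21 heat shock genes, 14 of 21 immediate early genes, 18 of 23 NF-kB genes and 14 of 17 macrophage markers were lower in double-silenced cells. In these groups 1 NF-kB gene was higher, and with library totals 1 immediate early gene too. Of 28 interferon-response genes 3 were higher and 5 lower than with siNfe2l1 alone, against 15.7% and 20.9% of all genes. With library totals 7 of them were higher and 3 lower. Fibroblast markers, 12 of 13 with a median of -0.53, and endothelial markers, 12 of 13 with a median of -0.40, were lower in the same comparison. The part of these markers in the result was not tested. Of the core proteasome genes 9 were higher and none lower. The 19 regulatory genes were mixed, with 7 higher and 4 lower and a median of 0.03 (11 and 2 with library totals). As given above, Nfe2l1 itself was higher in double-silenced cells than with siNfe2l1 alone. The added siAtf3 and the weaker silencing of Nfe2l1 cannot be told apart here. By the same rule the largest single differences were Mup17 (3.82 ± 0.64), Gm4841 (1.76 ± 0.35), Aldh1a1 (1.73 ± 0.07), Ogdhl (1.65 ± 0.12) and Smtnl2 (1.32 ± 0.13) on the higher side, and Hephl1 (-2.00 ± 0.14), Pth1r (-1.98 ± 0.09), Col3a1 (-1.97 ± 0.06), Fads1 (-1.91 ± 0.05) and Htra1 (-1.87 ± 0.05) on the lower.

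Levels in all 4 loaded groups are given for 4 of the genes described above. Fads1 averaged 91.0 ± 5.18 CPM with both siRNAs, 68.9 ± 2.01 CPM with siAtf3, 342 ± 25.4 CPM with siNfe2l1 and 376 ± 19.3 CPM in scramble. Ppargc1a averaged 12.8 ± 2.89 CPM with both, 11.8 ± 1.70 CPM with siAtf3, 41.9 ± 16.2 CPM with siNfe2l1 and 65.8 ± 8.69 CPM in scramble. For both genes double-silenced cells lay nearer to siAtf3 than to siNfe2l1 cells. Psmb3 averaged 85.5 ± 2.67 CPM with both siRNAs, 85.9 ± 4.14 CPM with siNfe2l1, 109 ± 3.73 CPM with siAtf3 and 122 ± 12.9 CPM in scramble, so that double-silenced cells lay nearer to siNfe2l1 cells. Mx1 averaged 15.9 ± 2.73 CPM with both, 11.6 ± 5.26 CPM with siNfe2l1, 8.33 ± 2.71 CPM with siAtf3 and 4.07 ± 1.24 CPM in scramble. The difference between both siRNAs and either alone was not called (edgeR adjusted p = 0.304 against siNfe2l1 and 0.094 against siAtf3).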

How the data were processed

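RNA was taken from mouse primary white adipocytes with a column kit and poly(A) RNA was sequenced, per the labels' protocols. The authors deposited 1 table of raw read counts per gene for all 32 libraries (8 groups of 4). Per the submitters' processing notes the tools were fastp, HISAT2 2.0.5 and featureCounts 1.5.0-p3 with build GRCm39. Use of strand and of multi-mapping reads is not given in the sources used here. The gene length column of the deposited table was not used for any value. The letter C added to a column's name was read as cholesterol, from the matching sample titles.

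Genes were kept with filterByExpr (minimum count 10, minimum total 15), which left 16984 of 56748. One robust quasi-likelihood model of edgeR 4.0.16 (R 4.3.3) was fitted to all 8 groups with TMM scaling, leaving 24 residual degrees of freedom, and p-values were adjusted by Benjamini-Hochberg over all genes of each of 5 comparisons. The fit was tested on simulated data. Alternatives used DESeq2 1.42.0 and limma 3.58.1, other scalings, no filter, a replicate block, only the groups compared, and each library left out. The 47 gene lists hold 804 genes, of which 803 matched, 21 by RefSeq synonyms, and the higher-count ID was used where a symbol had more than 1.

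The members and lists were chosen with earlier results of these data known. Named genes are Nfe2l1, Atf3, the 12 protein-coding genes at each end of the fold changes that were called, averaged 2 or more in log2 CPM and had no overlap between groups, landmark genes and up to 5 called members with the smallest adjusted p per list, and the 5 genes at each end of the other comparisons. Further genes, Ifnb1, Stat2 and Ifit1 among them, were named after their values were seen. A few genes that the rule names are not reported here. Promoters were matched by symbol for 11735 of the tested genes. The 8 libraries of the comparison held 24106078 to 28391112 counts, and no read depth beyond these counts enters the values.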

Additional observations from a re-analysis of the deposited data

Results flagged for a closer look

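Among 92 groups of 4 libraries examined for the genes whose library values are given, 5 had a library whose gap to its nearest neighbour exceeded Dixon's critical share of the group's range for 4 samples. Chance gives about 1 group in 20. In double-silenced loaded cells these were Ccl2, with library 3 the highest (0.900 of the range), and Dgat1, with library 2 the lowest (0.873). In loaded scramble cells they were Hp, with library 1 the highest (0.937), Hspb1, with library 1 the highest (0.844), and Ptgs2, with library 3 the highest (0.957).

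The effect of double silencing differed between loaded and unloaded cells at 32 of the 36 genes for which that difference was printed, by the interaction term of the edgeR fit (log2, loaded minus unloaded effect). The 36 include genes chosen because this difference was large and called, so the count says nothing of genes at large. Of all genes tested 13.7% had such a difference. The effect was more positive with loading at the interferon-inducible genes Gm4841 (2.56), Irgm2 (1.56), Tlr3 (1.505), Mx1 (1.48), Irgm1 (1.44), Ifit1 (1.00) and Stat2 (1.00). It was also more positive at Aplnr (1.76), Pi15 (1.54), Ptgs2 (1.22) and Egr3 (0.66). It was more negative at the silenced genes Atf3 (-2.17) and Nfe2l1 (-0.28) and at the proteasome gene Psmd4 (-0.29). The heat shock and stress genes Hspb1 (-0.99), Hspa1a (-0.96), Dnajb1 (-0.89), Jun (-0.93), Dusp1 (-1.33), Nr4a3 (-1.53), Ppp1r15a (-1.08) and Ddit3 (-0.75) were more negative as well. So were the metabolic, matrix and other genes Depp1 (-1.98), Crocc2 (-1.91), Arl4c (-1.78), Cldn23 (-1.76), Dlx3 (-1.72), Ppargc1a (-1.28), Plin2 (-0.71), Col3a1 (-0.63), C1qa (-0.60) and Fads1 (-0.37).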

How the results depend on the processing

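The count of genes called in loaded cells (7593) stayed between 6474 and 8348 over all alternatives that kept every library, and between 6910 and 7375 on leaving out each library in turn. The same leave-one-out ranges were 3875 to 4158 without cholesterol, 1634 to 2696 for the difference between media, 5438 to 6425 against siNfe2l1 and 930 to 1144 against siAtf3. The lowest of these for siAtf3 came without double-silenced library 3. Fitting only the groups compared gave 6474 genes in loaded and 6268 in unloaded cells, and limma-voom with weights by group, chosen after seeing the data, gave 6681 and 6301. DESeq2's Wald test called 7669, limma-voom 7499, DESeq2's size factors 7591, and no filter on low counts 6876.

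Library totals moved the balance of directions most. Of 337 named genes 302 kept direction and side of the threshold under them, 28 lost their call and 4 gained one. Another 3 changed sign and were called higher with library totals: Hspa5 at 0.128, the sterol acyltransferase gene Soat1 at 0.1455 and the lipase gene Pnpla2 at 0.1472. Under the alternatives other than library totals, 327 to 336 of the named genes kept direction and side of the threshold, and none reversed. The cause of the changes was not tested.

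Libraries that share a replicate number deviated together only weakly in loaded cells (correlations of 0.029 to 0.073, with the own number the best match for 3 of 4). Whether a shared number stands for a shared animal or batch is not given by the labels and was not tested. With a replicate block 7772 genes were called in loaded cells, 4804 in unloaded cells, 2674 for the difference, 6421 against siNfe2l1 and 1511 against siAtf3. Low counts limit genes such as Ifnb1, Mup17 and Aplnr, and whether the libraries come from separate animals limits what the p-values cover.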
